A study of Mus musculus with 32 samples.

Results

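The genes described here are 35 genes that mark the sensory neurons of the dorsal root ganglion, out of 45706 gene identifiers counted in 32 libraries of mouse spinal cord. They were taken from a list of sensory neuron gene symbols, and all 35 were found in the count table (Drgx under its older symbol Prrxl1). The genes were chosen by their levels in these data: they stood high in 2 libraries, CHMP2Bintron5 replicates 2 and 3 at 6 months, against the other 30. Levels in those 2 libraries against the other 30 are therefore a description of what chose the genes, and no test was made of them.

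The study sequenced spinal cord of non-transgenic control mice and of mice carrying 12 copies of a CHMP2Bintron5 transgene, a mutant form of a subunit of the ESCRT-III membrane-remodelling complex linked to frontotemporal dementia. All were on a mixed background of the FVB/N, C57BL/6 and DBA/2 strains, and the sources used here name neither the promoter of the transgene nor the sex of the animals. There were 6 control libraries aged 1.5 months, 5 aged 6 months and 6 aged 10-12 months, with 5, 4 and 6 CHMP2Bintron5 libraries in the same order. Library totals ran from 28368376 to 85348326 counts, and the 2 libraries that chose the genes held 36169270 and 44582899 counts. Levels are given as CPM, counts scaled by TMM-adjusted library totals. No label says that replicates came from separate animals, so the p-values below measure the spread between these samples only.

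Dorsal root ganglia lie beside the cord and hold the cell bodies of sensory neurons, whose central axons enter the dorsal horn. Nociceptors, the neurons for pain, itch and temperature, fall into peptidergic cells that make CGRP, and non-peptidergic cells marked by Mrgprd, P2rx3 and prostatic acid phosphatase (Acpp). Transcription factors such as Isl1, Pou4f1, Tlx3, Drgx, Prdm12 and Runx1 set up these fates, and several of them are also made by neurons of the cord itself, as are peripherin, gamma-synuclein and CGRP. In bulk tissue, more cells of a type and more RNA per cell cannot be told apart.

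The promoters of Scn10a, Scn11a, Mrgprd and Avil are shown first, because these genes had a median under 1 CPM in the other 30 libraries and the largest levels of that kind in the 2. They are 300-base RefSeq windows of GRCm38.p6, from 250 bases before the annotated start to 50 bases after it, written 5′ to 3′ on the gene's strand. Capitals mark 3 motifs searched on both strands: TGTGGT (RUNX), TAAT (homeodomain core) and ATNNNTAAT (a POU4F-like motif, which contains the TAAT core). Scn10a lies at chr9:119718983-119719282 on the minus strand, Scn11a at chr9:119825407-119825706 on the minus strand, Mrgprd at chr7:145314585-145314884 on the plus strand and Avil at chr10:127000459-127000758 on the plus strand.
Scn10a: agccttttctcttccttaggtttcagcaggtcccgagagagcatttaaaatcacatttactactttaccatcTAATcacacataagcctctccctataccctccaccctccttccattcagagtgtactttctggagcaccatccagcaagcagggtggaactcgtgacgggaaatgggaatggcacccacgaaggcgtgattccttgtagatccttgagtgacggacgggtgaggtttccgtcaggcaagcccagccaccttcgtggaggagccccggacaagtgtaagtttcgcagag
Scn11a: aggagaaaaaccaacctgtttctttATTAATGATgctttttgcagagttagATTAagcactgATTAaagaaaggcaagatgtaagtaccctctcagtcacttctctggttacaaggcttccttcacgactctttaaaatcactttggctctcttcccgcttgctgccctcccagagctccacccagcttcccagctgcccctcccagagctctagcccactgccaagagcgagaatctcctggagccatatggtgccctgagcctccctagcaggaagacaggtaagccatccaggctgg
Mrgprd: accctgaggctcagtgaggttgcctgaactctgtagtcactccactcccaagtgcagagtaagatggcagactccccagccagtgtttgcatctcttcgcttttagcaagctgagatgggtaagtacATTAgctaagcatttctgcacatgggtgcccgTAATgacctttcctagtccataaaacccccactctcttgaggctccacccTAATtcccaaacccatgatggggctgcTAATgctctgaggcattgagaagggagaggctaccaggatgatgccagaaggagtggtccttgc
Avil: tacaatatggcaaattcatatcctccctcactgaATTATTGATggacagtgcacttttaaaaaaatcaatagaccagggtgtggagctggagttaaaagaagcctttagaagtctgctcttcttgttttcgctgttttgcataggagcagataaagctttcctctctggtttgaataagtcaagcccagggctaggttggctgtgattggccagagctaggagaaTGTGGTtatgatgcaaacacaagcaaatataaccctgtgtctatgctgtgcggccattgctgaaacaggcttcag

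Of the 35 genes, 25 had a RefSeq promoter window. The POU4F-like motif was in 4 of the 25 (Avil, Scn11a, Ppp1r1c and Runx1) against 9.9% of all 27025 promoters of this length. TAAT was in 16 of the 25 against 58.3% of all promoters, and TGTGGT in 6 against 16.9%. In Avil the RUNX motif lies 25 bases before the start and the POU4F-like motif, on the reverse strand, 216 bases before it. In Scn11a the POU4F-like motif, also on the reverse strand, lies 225 bases before the start, and Scn10a holds 1 TAAT, 178 bases before its start. A match of letters is no evidence of binding, and no binding data were part of the series.

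The voltage-gated sodium channels Scn10a (Nav1.8) and Scn11a (Nav1.9), which carry the action potentials of nociceptors, were near absent from 30 libraries. Scn10a stood at 47.7 CPM in CHMP2Bintron5 replicate 2 at 6 months and at 113.6 CPM in replicate 3, and elsewhere the lowest, median and highest library had 0, 0.0468 and 0.233 CPM. Scn11a stood at 26.96 and 69.3 CPM, against a lowest, median and highest of 0.0206, 0.103 and 0.381 CPM in the others. The 2 other CHMP2Bintron5 libraries of the same age, replicates 1 and 4, had 1 and 3 counts of Scn10a where replicates 2 and 3 had 1744 and 5140. Only these 2 of the 4 libraries of that group were high for either channel. Both channels sit on chromosome 9 of GRCm38, Scn10a at chr9:119608456-119719322 and Scn11a at chr9:119753759-119825456.

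Avil, the gene of the actin-binding protein advillin and a general sensory neuron marker, stood at 59.9 and 145.5 CPM, with 0.519, 0.815 and 1.41 CPM as lowest, median and highest elsewhere. Mrgprd, the receptor of non-peptidergic nociceptors, stood at 15.4 and 40.4 CPM, with 0, 0.0559 and 0.315 CPM elsewhere. Prdm12, a regulator without which nociceptors do not form, stood at 9.52 and 20.9 CPM, with a highest value of 0.169 CPM elsewhere. None of the other 30 libraries came within 5-fold of the lower of the 2 libraries for these 3 genes.

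Among the sensory ion channels, Trpv1, the heat and capsaicin receptor, stood at 11.1 and 18.7 CPM against 0.341, 0.559 and 0.973 CPM as lowest, median and highest elsewhere. Trpm8, the cold receptor, stood at 2.27 and 3.58 CPM against a highest value of 0.165 CPM elsewhere. P2rx3, an ATP-gated channel, had 12.4 and 28.4 CPM, but the other libraries also held 1.19 to 2.34 CPM of it. Asic3, an acid-sensing channel, stood at 8.26 and 13.0 CPM against a highest value of 1.80 CPM, and Trpa1, the irritant receptor, at 4.38 and 7.54 CPM against 1.78 CPM. Piezo2, the mechanically gated channel of touch neurons, was at 34.9 and 80.4 CPM over a range of 7.58 to 19.6 CPM elsewhere. Every one of these channels was above all other libraries in both, by factors that differed with how much the others held.

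Gfra3, the artemin receptor subunit, stood at 4.24 and 6.32 CPM against a highest value of 0.508 CPM elsewhere. Ngfr, the low-affinity neurotrophin receptor, stood at 45.0 and 94.8 CPM over 5.31 to 16.8 CPM elsewhere. Mrgprb5 had 20 and 44 counts in the 2 libraries and none in the other 30, which is at least 267-fold and 475-fold higher when the 30 libraries together are set to a floor of 3 counts. Mrgpra3, a receptor of itch neurons, had 20 and 97 counts against 3 in all others, and Mrgprx1 had 17 and 54 counts against 2. Mrgpr genes have near-identical copies side by side on chromosome 7, so the split of reads between them is uncertain.

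Of the neuropeptide genes, Calca, Calcb and Nmb were present in every library. Calca, which encodes CGRP, stood at 158.4 and 218.9 CPM, against 26.5, 54.1 and 97.6 CPM as lowest, median and highest elsewhere. Calcb, its beta form, stood at 20.5 and 25.1 CPM against 4.97, 9.70 and 18.6 CPM, and Nmb, neuromedin B, at 13.4 and 24.9 CPM against 2.88, 4.41 and 6.67 CPM. Nppb, a peptide of itch neurons, was low throughout, at 0.602 and 2.06 CPM against a highest value of 0.289 CPM. The 2 libraries were above all others for each of the 4 peptides, by a narrow margin for Calcb.

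The cytoskeletal and synaptic proteins that the cord also makes behaved likewise. Sncg, gamma-synuclein, stood at 310.9 and 468.0 CPM over 73.5 to 195.3 CPM elsewhere, and Prph, peripherin, at 180.2 and 291.2 CPM over 37.3 to 133.1 CPM. Peripherin is also a motor neuron protein. Per kilobase of exon and after subtracting the median of the other libraries, Sncg had the most in replicate 3 (398.8 CPM per kb), followed by Prph (109.9), Calca (97.8), Trarg1 (43.1) and Avil (42.6). Scn10a, a long transcript, had 14.3 CPM per kb on this scale.

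Transcription factors also differed in how much the cord itself held. Isl1, a LIM-homeodomain factor also made by motor neurons, stood at 9.87 and 12.3 CPM over 1.68 to 4.09 CPM elsewhere, and Runx1 at 4.98 and 9.66 CPM over 0.829 to 2.54 CPM. Pou4f1 (Brn3a) stood at 17.8 and 26.8 CPM over 7.44 to 11.8 CPM, and Drgx at 19.3 and 29.1 CPM over 9.62 to 15.4 CPM. Tlx3, a factor of glutamatergic dorsal horn and sensory neurons, was the 1 gene of the 35 for which a library outside the 2 lay higher than one of them: replicate 2 had 2.95 CPM and CHMP2Bintron5 replicate 4 at 1.5 months had 3.15 CPM.

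The remaining genes hold membrane proteins, enzymes and regulators. Pirt, a modulator of TRP channels, stood at 75.5 and 163.2 CPM against a highest value of 3.08 CPM elsewhere, and Trarg1, a membrane protein of glucose transporter vesicles, at 56.2 and 143.9 CPM against 2.15 CPM. Fxyd2, a regulator of the sodium pump, stood at 44.3 and 115.8 CPM against 2.71 CPM. Acpp, the acid phosphatase of non-peptidergic nociceptors, stood at 26.3 and 74.7 CPM against 2.21 CPM, Ppp1r1c, a protein phosphatase inhibitor, at 26.8 and 54.9 CPM against 3.05 CPM, and Tmem79 at 10.99 and 28.4 CPM against 1.70 CPM. All 6 were at a low but measurable level in the other libraries. Ctxn3, a small membrane protein of neurons, stood at 15.3 and 26.3 CPM over 2.75 to 12.9 CPM elsewhere, and Fam89a at 4.29 and 7.82 CPM over 0.656 to 1.44 CPM.

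Both libraries lay above the highest of the other 30 for 34 of the 35 genes (1.89% of the 27786 genes with at least 10 counts in all did so), and at least 5 times above it for 18 of the 35 (0.151% of genes). These counts follow from how the list was made. P2rx3 lay just inside the 5-fold line at 5.29 times the highest other library, and Asic3 just outside it at 4.59 times. Split by their level elsewhere, 11 genes had a median under 1 CPM in the other 30 libraries and stood at least 5 times above the highest of them: Avil, Scn10a, Scn11a, Mrgprd, Trpv1, Trpm8, Prdm12, Gfra3, Mrgprb5, Mrgpra3 and Mrgprx1. Another 22 had a median of at least 1 CPM there, 7 of them passing the 5-fold line (P2rx3, Pirt, Trarg1, Fxyd2, Tmem79, Acpp and Ppp1r1c). Nppb and Fam89a met neither description. Tmem79, with a median of 1.00 CPM, and Fam89a, with 0.971 CPM, lay on either side of the 1 CPM line. For the 22, with a median of at least 1 CPM elsewhere, the name of a ganglion gene does not describe them strictly in this tissue. The 1 CPM line does not split genes with counts elsewhere from genes without. Of the 11, every other library held at least 20 counts of Avil, 12 of Trpv1, 2 of Gfra3 and 1 of Scn11a.

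**Figure D1:**
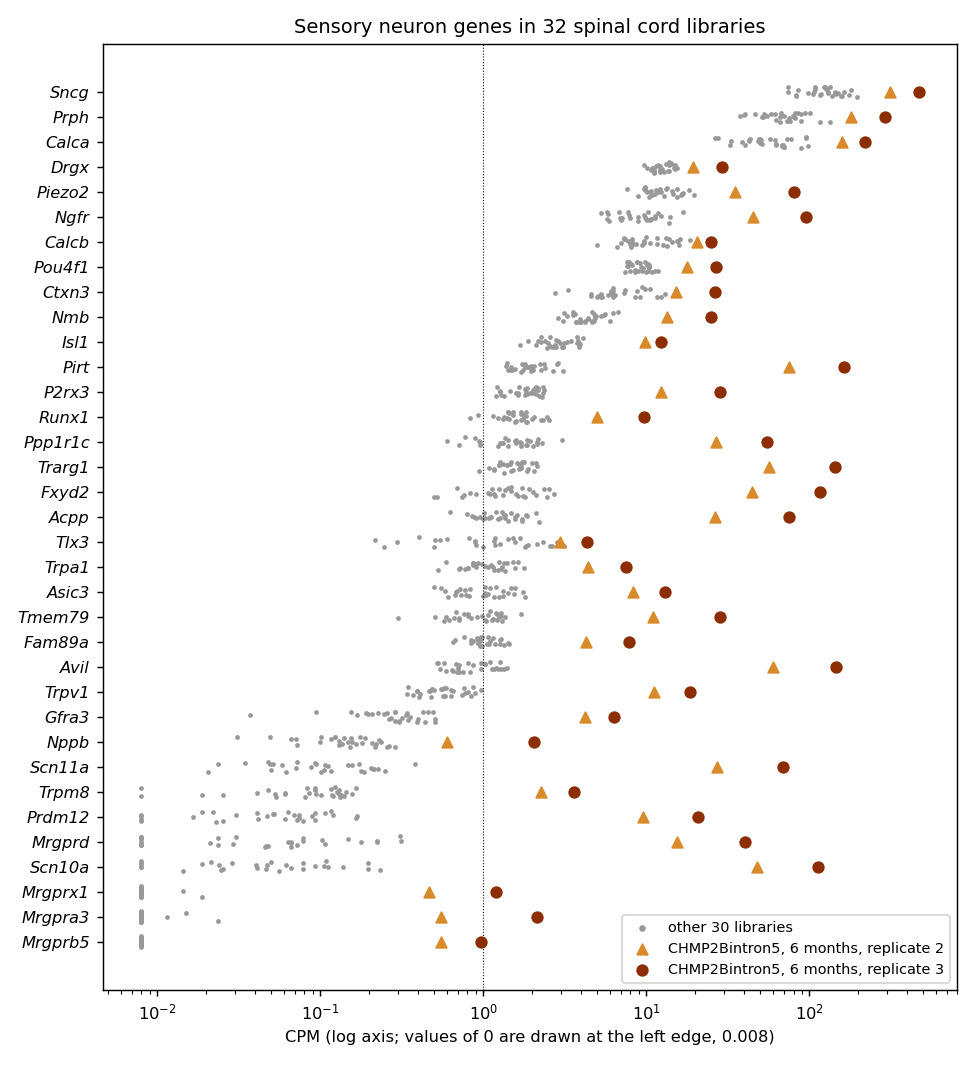
Level of each of the 35 genes (CPM, log axis) in CHMP2Bintron5 replicates 2 (triangles) and 3 (circles) at 6 months and in the other 30 libraries (grey points), ordered by the median of the 30. Replicate 3 lies right of replicate 2 in every line, and replicate 2 lies near the grey points for Calcb (20.5 CPM against at most 18.6) and far from them for Scn10a (47.7 CPM against at most 0.233).

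Replicate 3 was higher than replicate 2 for all 35 genes. After the median of the other 30 libraries was subtracted, the ratio of replicate 3 to replicate 2 had a median of 2.20 over the 31 genes with at least 50 counts in both libraries, and ran from 1.34 to 3.00. Each ratio is a description of these 2 libraries, by whose levels the genes were chosen. Among markers of non-peptidergic nociceptors the ratio was 2.93 for Acpp (95% interval 2.72 to 3.16, exact binomial, counting error only), 2.62 for Mrgprd (2.38 to 2.89) and 2.52 for P2rx3 (2.23 to 2.86). Among markers of peptidergic and thermal nociceptors it was 1.58 for Calca (1.51 to 1.66), 1.72 for Trpv1 (1.52 to 1.95), 1.53 for Gfra3 (1.24 to 1.90) and 1.60 for Trpm8 (1.21 to 2.14). Of the other peptide genes, Calcb had 1.42, below the median of 2.20, and Nmb had 2.28, above it. The sodium channels and advillin had 2.38 for Scn10a, 2.58 for Scn11a and 2.45 for Avil. Piezo2 had the highest ratio, 3.00, and Isl1 the lowest, 1.34. The grouping was made after the ratios were seen, and no difference between groups was tested. Subtracting the highest other library in place of the median moved the ratio of Ctxn3 to 5.69, of Calcb to 3.36 and of Calca to 1.99, while Scn10a kept 2.39 and Avil 2.46.

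**Figure D2:**
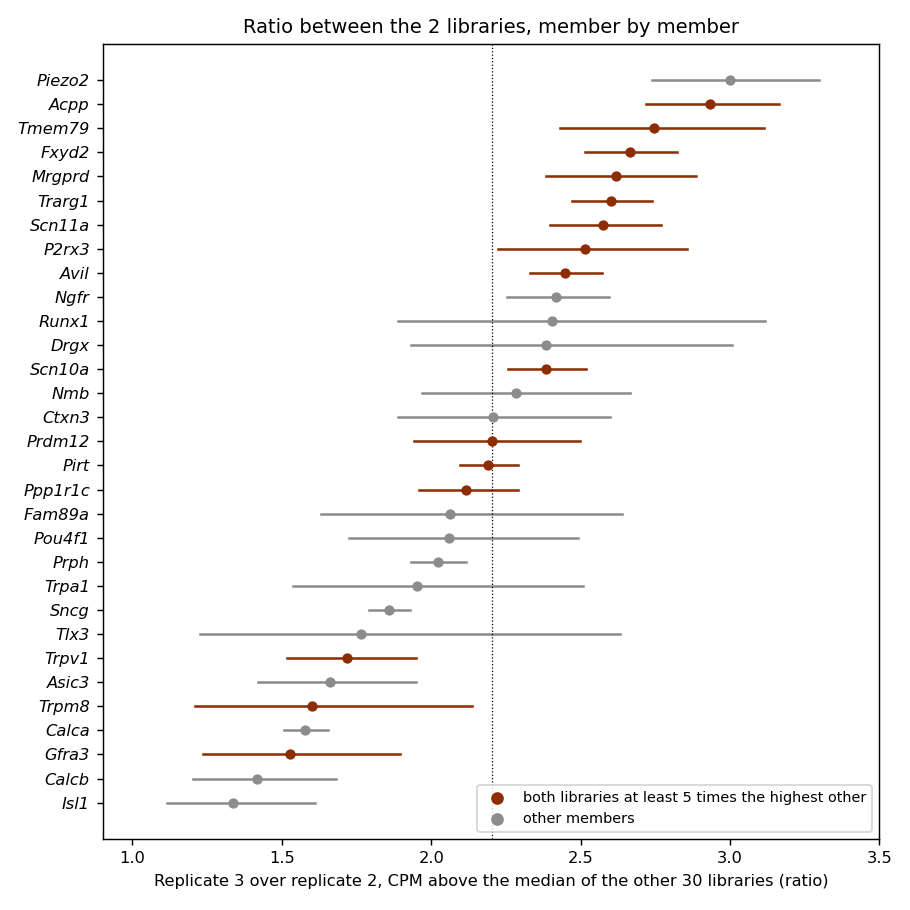
Ratio of replicate 3 to replicate 2 (horizontal axis, no unit) for the 31 genes with at least 50 counts in both libraries, after subtraction of the median of the other 30, with exact binomial 95% intervals that cover counting error only. The intervals of Acpp (2.72 to 3.16) and Calca (1.51 to 1.66) lie on either side of the dotted median of 2.20.

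Marker lists of other cells were read in the same 2 libraries. These libraries chose the 35 genes, and the lists were drawn up with earlier results known, so the counts below are a description. Of the 27786 genes with at least 10 counts in all, 1.89% stood above all other libraries in both, and 0.151% at least 5 times above. Of 14 genes of Schwann cells and satellite glia, the glia of nerve roots and ganglia, none stood above all other libraries. The summed level of that list was 3505 and 4090 CPM in the 2 libraries and 1912 to 8595 CPM in the others. Of 25 further nociceptor and itch genes, 12 stood above all other libraries and 5 at least 5 times above them. Of 15 genes of touch neurons and proprioceptors, 4 stood above all others (Runx3, Tafa4, Htr3a and Kcns1) and none 5 times above. Pvalb, the proprioceptor marker, had 95.0 and 98.4 CPM within a range of 82.0 to 171.5 CPM, but the cord makes it too. Of 6 motor neuron genes, Isl2 and Prph stood above all others. The summed level of the list was 355.5 and 418.2 CPM against 166.5 to 288.8 CPM elsewhere. That sum holds Prph, at 180.2 and 291.2 CPM, 1 of the 35 genes chosen by these libraries, so it cannot be read as a motor neuron level. Chat, at 24.5 and 18.3 CPM, lay within 13.9 to 35.2 CPM. Slc5a7, Slc18a3 and Mnx1 also lay within the range of the other libraries. Of 10 dorsal horn genes Tac1 stood above all others, at 81.1 and 74.8 CPM against at most 71.5 CPM, and of 10 genes of injured ganglion neurons Jun did, at 43.3 and 44.1 CPM where the highest other library had 43.0 CPM. In the lists for meninges (10 genes), skeletal muscle (10), adipocytes (6), autonomic neurons (7), microglia (5) and general cord cells (8), no gene stood above all others in both libraries. In replicate 3 alone all 6 adipocyte genes did, summing to 9.52 CPM, where replicate 2 had 0.766 CPM and the highest of the other 30 libraries 5.38 CPM. The meningeal genes Igf2 (190.8 CPM against at most 183.3) and Aldh1a2 (35.3 against at most 33.4) and the catecholamine enzyme Th (25.1 against at most 15.6) were also above all others in replicate 3 alone, and the autonomic genes Dbh and Chrna3 in replicate 2 alone. The part of these cells in the values of the 35 genes was not tested.

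The other 30 libraries held a small remainder of the near-absent genes. For 8 of them whose highest level elsewhere was under 0.5 CPM (Scn10a, Scn11a, Mrgprd, Trpm8, Prdm12, Mrgprb5, Mrgpra3 and Mrgprx1, chosen after their values were seen), the sum was 103.4 CPM in replicate 2 and 252.0 CPM in replicate 3. Control libraries had 0.196 to 0.645 CPM at 1.5 months, 0.203 to 0.511 CPM at 6 months and 0.144 to 0.524 CPM at 10-12 months. CHMP2Bintron5 libraries had 0.281 to 0.560 CPM at 1.5 months, 0.340 and 0.456 CPM in replicates 1 and 4 at 6 months, and 0.288 to 0.931 CPM at 10-12 months. The highest of the 30, CHMP2Bintron5 replicate 1 at 10-12 months, rested on 44 counts and equalled 0.369% of replicate 3. Groups overlapped at each age, and no other library came near the 2.

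**Figure D3:**
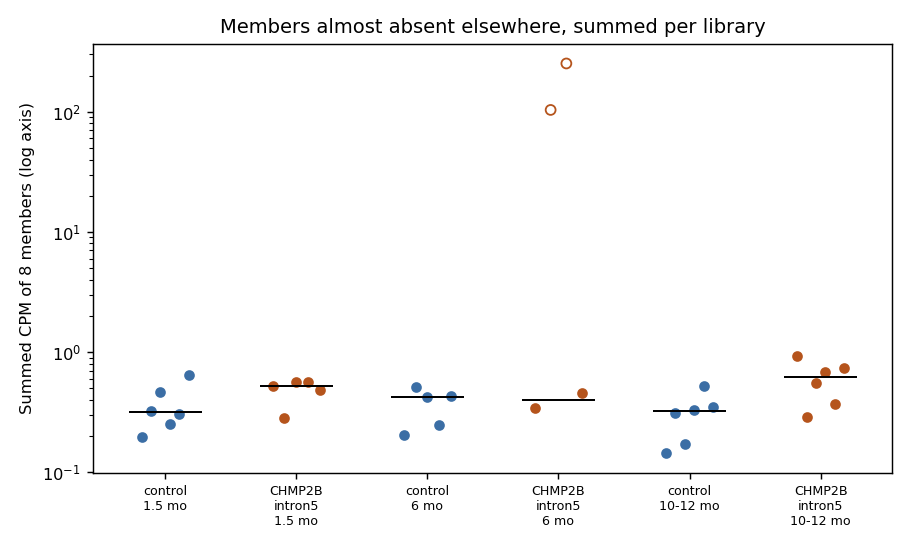
Summed CPM (log axis) of Scn10a, Scn11a, Mrgprd, Trpm8, Prdm12, Mrgprb5, Mrgpra3 and Mrgprx1 per library, by genotype and age, with bars at the median of the libraries other than the 2; open circles are CHMP2Bintron5 replicates 2 and 3 at 6 months. These 2 lie at 103.4 and 252.0 CPM and every other library at or under 0.931 CPM.

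Genotype and age were compared in a fit to the 30 libraries without the 2, because the 2 set the spread of these genes in any fit that holds them. The default filter on low counts passed 29 of the 35 genes in 20563 genes tested; Scn10a, Trpm8, Prdm12, Mrgprb5, Mrgpra3 and Mrgprx1 did not pass and were not tested. At 1.5 months 4 of the 29 were called higher in CHMP2Bintron5 cord and none lower, at an adjusted p under 0.05 (edgeR quasi-likelihood test, Benjamini-Hochberg over all genes), where 3.39% of all genes tested were called, 1.68% higher and 1.71% lower. At 10-12 months 7 were higher, among them Mrgprd, which passed the filter through the group in which it was higher and so cannot count as support, and 2 were lower, where 17.4% of all genes were called, 7.77% higher and 9.59% lower. At 6 months, with CHMP2Bintron5 replicates 1 and 4 alone against 5 controls, 1 was higher and 1 lower, where 4.37% of genes were called, 2.21% higher and 2.16% lower. The 2 libraries left out were set apart by high levels of these genes, so this comparison does not describe the whole 6-month group. The median log2 fold change of the 29 was 0.27 at 1.5 months, 0.34 at 10-12 months and 0.13 at 6 months, beside medians of 0.01, 0.02 and 0.02 over all genes tested. These medians hold Mrgprd and Scn11a, which passed the filter only through CHMP2Bintron5 libraries. Fitted to all 32 libraries, only Calcb was called at 1.5 months and only Calcb and Ctxn3 at 10-12 months.

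**Figure D4:**
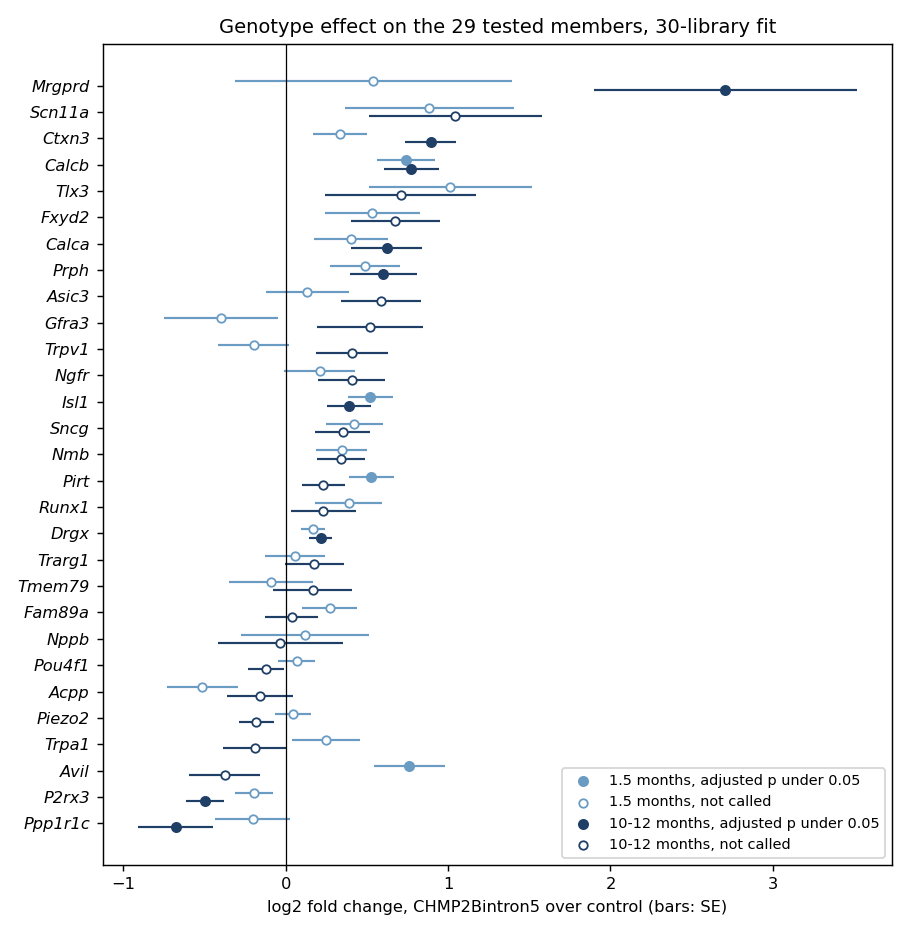
Log2 fold change of CHMP2Bintron5 over control with SE for the 29 genes tested, at 1.5 months (light) and 10-12 months (dark), in the fit without CHMP2Bintron5 replicates 2 and 3 at 6 months; filled points passed an adjusted p of 0.05. Calcb is filled at both ages (0.74 and 0.77), Ctxn3 at 10-12 months (0.89), and P2rx3 is filled below 0 at 10-12 months.

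Calcb was higher in CHMP2Bintron5 cord at 1.5 and 10-12 months, and Calca at 10-12 months. Calcb at 1.5 months had 4.97, 7.73 and 9.68 CPM as lowest, median and highest of 6 controls, and 9.96, 9.40, 13.1, 15.7 and 16.1 CPM in the 5 CHMP2Bintron5 libraries. Only the lowest CHMP2Bintron5 library lay within the control range, and the log2 fold change was 0.74 ± 0.18 (SE, edgeR adjusted p = 0.0140). At 10-12 months the lowest, median and highest were 6.95, 7.92 and 13.3 CPM in controls and 11.7, 14.6 and 18.6 CPM in CHMP2Bintron5 cord. The ranges met only because control replicate 1 stood at 13.3 CPM, and the log2 fold change was 0.77 ± 0.17 (edgeR adjusted p = 0.00322). At 6 months replicates 1 and 4 had 11.6 and 14.3 CPM against 6.59 to 10.49 CPM in 5 controls, which did not pass (0.60 ± 0.24, edgeR adjusted p = 0.136). The call at 10-12 months stood in each of 20 alternative fits, with adjusted p from 1.9e-04 to 0.0123. The call at 1.5 months was lost without CHMP2Bintron5 replicate 4 (edgeR adjusted p = 0.0594), without replicate 5 (0.0564) and in a fit of these groups alone (0.0612).

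Calca at 10-12 months had 27.5, 41.8 and 50.5 CPM as lowest, median and highest in controls and 49.8, 65.3 and 72.6 CPM in CHMP2Bintron5 cord. The ranges touched at a single library of each group, and the log2 fold change was 0.62 ± 0.22 (edgeR adjusted p = 0.0481), a call lost in 8 of 12 fits that each left out 1 library. At 1.5 months Calca did not pass (0.40 ± 0.23, edgeR adjusted p = 0.390), and the spread of controls, 33.0 to 88.6 CPM, covered most of the CHMP2Bintron5 libraries. Calca and Calcb are neighbours on chromosome 7 of GRCm38, at chr7:114631478-114636357 and chr7:114718643-114723365.

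Ctxn3 was higher in CHMP2Bintron5 cord at 10-12 months, and at 6 months in the comparison of replicates 1 and 4 alone. At 10-12 months the lowest, median and highest were 4.96, 6.15 and 6.43 CPM in controls and 9.41, 11.1 and 12.9 CPM in CHMP2Bintron5 cord. The groups did not overlap, and the log2 fold change was 0.89 ± 0.16 (edgeR adjusted p = 4.2e-04), called in each of 20 alternative fits. At 6 months CHMP2Bintron5 replicates 1 and 4 had 8.51 and 9.20 CPM and the 5 controls 5.32, 2.75, 3.33, 4.61 and 7.34 CPM (0.93 ± 0.22, edgeR adjusted p = 0.0154). That call was lost without CHMP2Bintron5 replicate 4 (edgeR adjusted p = 0.378) and in a fit of the 2 groups alone (0.144). At 1.5 months it did not pass (0.33 ± 0.16, edgeR adjusted p = 0.310), and the difference between the effects at 10-12 and 1.5 months did not pass either (0.56 ± 0.23, edgeR adjusted p = 0.798).

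P2rx3, the ATP-gated channel, was lower in CHMP2Bintron5 cord at 10-12 months, and at 6 months only in the comparison of replicates 1 and 4. Replicates 2 and 3 were left out there because genes such as P2rx3 stood high in them, so that comparison does not describe the whole group. With all 4 libraries the log2 fold change at 6 months was 2.41, a description that holds the 2 libraries that chose the genes. At 10-12 months the lowest, median and highest were 1.66, 2.09 and 2.16 CPM in controls and 1.26, 1.31 and 1.63 CPM in CHMP2Bintron5 cord. The groups did not overlap, and the log2 fold change was -0.50 ± 0.11 (edgeR adjusted p = 0.00464). At 6 months CHMP2Bintron5 replicates 1 and 4 had 1.19 and 1.22 CPM against 2.34, 1.80, 1.86, 1.82 and 2.31 CPM in controls (-0.74 ± 0.17, edgeR adjusted p = 0.0130), while replicates 2 and 3 of that group had 12.4 and 28.4 CPM. The 6-month call was lost without replicate 1 (edgeR adjusted p = 0.0743), without replicate 4 (0.294) and in a fit of the 2 groups alone (0.104). The call at 10-12 months was lost only in the fit that held all 32 libraries (edgeR adjusted p = 0.427). P2rx3 overlaps Ssrp1 on the other strand, and no source used here gives the strand setting of the counting.

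**Figure D5:**
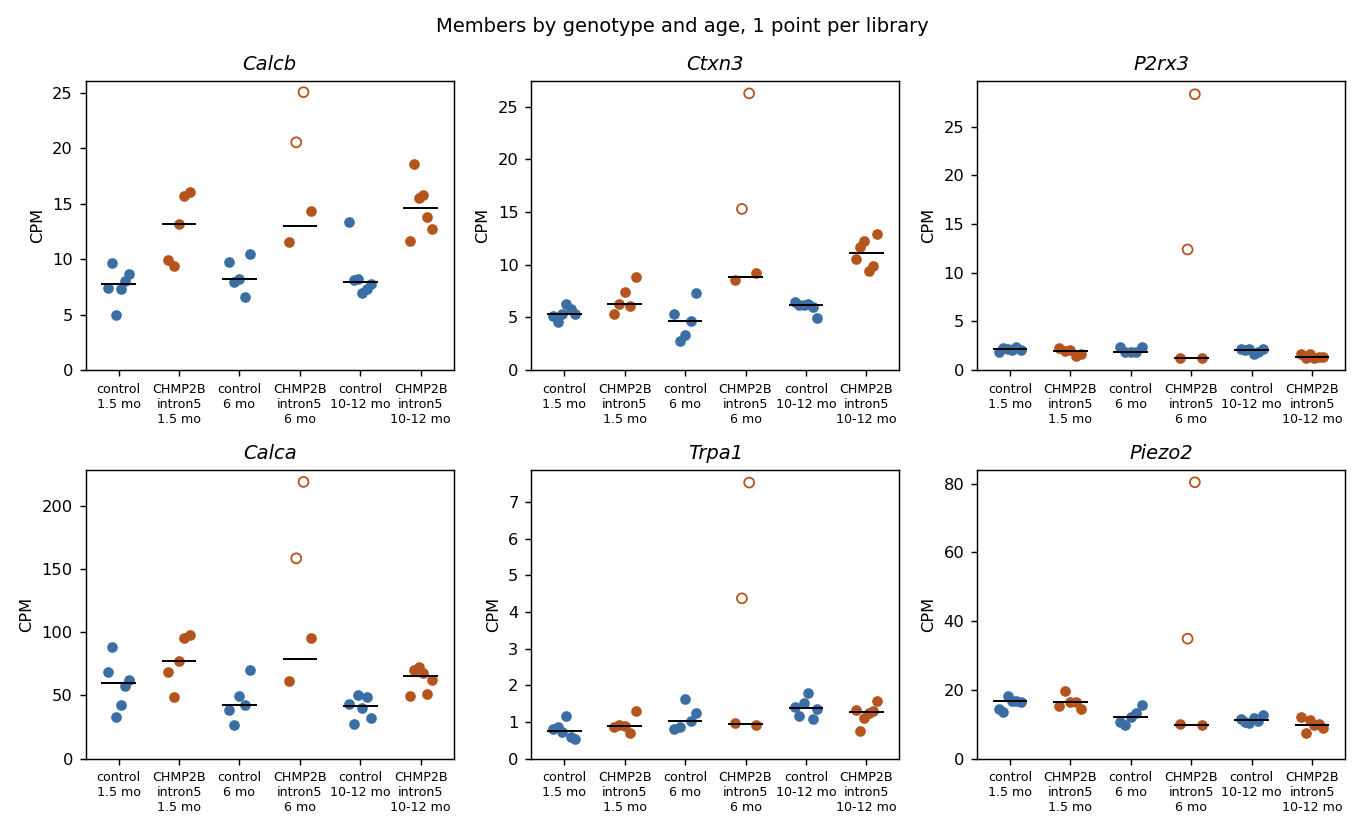
CPM of Calcb, Ctxn3, P2rx3, Calca, Trpa1 and Piezo2 in each library by genotype and age (blue, control; orange, CHMP2Bintron5), with bars at the median; open circles are CHMP2Bintron5 replicates 2 and 3 at 6 months and are not part of the bars. Ctxn3 at 10-12 months runs from 9.41 to 12.9 CPM in CHMP2Bintron5 cord, above the control high of 6.43, and Piezo2 in controls goes from a median of 16.6 at 1.5 months to 11.2 at 10-12 months.

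Prph and Isl1, which motor neurons also make, were called higher at 10-12 months (log2 fold change 0.60 ± 0.21, edgeR adjusted p = 0.0439, and 0.39 ± 0.13, 0.0419). Prph ran from 39.7 to 88.3 CPM in controls and from 66.8 to 133.1 CPM in CHMP2Bintron5 cord. The groups overlapped, and the call was lost in 8 of 12 fits that left out 1 library and with a correction for GC content (edgeR adjusted p = 0.0526). Isl1 ran from 2.46 to 2.76 CPM in controls and from 2.78 to 3.93 CPM in CHMP2Bintron5 cord, without overlap, but its call was lost in 9 of 12 such fits. At 1.5 months Isl1 was also called (0.52 ± 0.14, edgeR adjusted p = 0.0301), with 3.74, 3.12, 4.09, 3.05 and 3.77 CPM in CHMP2Bintron5 cord and 1.87 to 3.25 CPM in controls, and that call was lost in 7 of 11 such fits. Calls in the marker lists stand beside shares of all genes tested: 1.68% higher and 1.71% lower at 1.5 months, 7.77% and 9.59% at 10-12 months. Of the 6 motor neuron genes, 3 were called higher at 10-12 months: Prph again, Chat, which makes acetylcholine (0.35 ± 0.12, edgeR adjusted p = 0.0473), and Slc18a3, its vesicular transporter (0.77 ± 0.22, 0.0161). At 1.5 months 1 of the 6 was called higher, Mnx1 (0.73 ± 0.20, edgeR adjusted p = 0.0397). Of 10 dorsal horn neuron genes, 3 were higher at 1.5 months and 4 at 10-12 months, of 10 genes of injured ganglion neurons 5 and 6 were, and no gene of either list was lower. Gal belongs to both lists. None of the 14 Schwann and satellite glia genes was called at either age. Of 5 microglia genes 3 were higher at 1.5 months and 1 at 10-12 months. Of 8 general cord genes, Gfap, the astrocyte filament, was higher at both ages, and 3 were lower at 1.5 months and 4 at 10-12 months. No skeletal muscle gene of 10 was called, with median log2 fold changes of 1.11 and 1.25. The part of these cells in the values of Calca, Calcb, Prph and Isl1 was not tested.

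Avil and Pirt were called higher at 1.5 months and not called at 10-12 months. Avil had 0.519, 0.723 and 1.02 CPM as lowest, median and highest in controls and 1.41, 1.34, 1.135, 1.098 and 1.27 CPM in CHMP2Bintron5 cord. The groups did not overlap, and the log2 fold change was 0.76 ± 0.22 (edgeR adjusted p = 0.0497), a call lost in 10 of 11 fits that left out 1 library. At 10-12 months Avil did not pass and had the other sign (-0.38 ± 0.22, edgeR adjusted p = 0.224), and the difference of the 2 effects did not pass (-1.138 ± 0.31, edgeR adjusted p = 0.391). Pirt ran from 1.47 to 2.36 CPM in controls at 1.5 months, and CHMP2Bintron5 cord had 2.23, 2.68, 2.83, 2.89 and 3.08 CPM. Its log2 fold change was 0.53 ± 0.14 (edgeR adjusted p = 0.0266), and the call was lost in 6 of 11 such fits. Avil overlaps Tsfm and Pirt overlaps Gm12298 on the opposite strand.

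Of the remaining calls at 10-12 months, Drgx rose little, from 11.2 to 14.2 CPM in controls and from 13.8 to 15.4 CPM in CHMP2Bintron5 cord (0.22 ± 0.07, edgeR adjusted p = 0.0347). Ppp1r1c fell (-0.68 ± 0.23, edgeR adjusted p = 0.0425), with 0.944 to 2.02 CPM in controls and 0.5999 to 1.42 CPM in CHMP2Bintron5 cord. Both overlapped between groups, and both calls were lost with a correction for GC content (edgeR adjusted p = 0.102 and 0.104). Leaving out 1 library ended the call of Drgx in 8 of 12 fits and that of Ppp1r1c in 7 of 12. Mrgprd had counts of 0, 3, 0, 1, 3 and 0 in controls and 1, 2, 11, 10, 9 and 12 in CHMP2Bintron5 cord (2.71 ± 0.81, edgeR adjusted p = 0.0223). Since that group let it pass the filter, this fold change is a description, and the adjusted p missed the threshold without control replicate 3 (edgeR adjusted p = 0.0627) and without CHMP2Bintron5 replicate 4 (0.0539). Scn11a, Tlx3 and Gfra3 had log2 fold changes of 1.04, 0.71 and 0.52 at that age and did not pass the threshold. Scn11a passed the filter only through CHMP2Bintron5 libraries, so its fold change is a description as well.

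No gene of the 29 was called for a difference between ages in its genotype effect. The contrast of 10-12 against 1.5 months called 0 of 29 and 1 of 20563 genes (0.00486%). An unadjusted edgeR p under 0.05 was found for 2 of the 29 (Avil and Ctxn3) and for 1148 of all 20563 genes, a similar share. A missing call does not show that the effects were equal. A further list of 25 nociceptor and itch genes, 22 of them tested, had 4 called higher and none lower at 1.5 months and 2 higher and 1 lower at 10-12 months. Of all genes tested, 1.68% were higher and 1.71% lower at 1.5 months, and 7.77% higher and 9.59% lower at 10-12 months. The 4 were Osmr, Adcyap1, Lpar5 and Cd44, and the 2 included Gfra2, a receptor of non-peptidergic neurons (0.28 ± 0.08, edgeR adjusted p = 0.0190). The 1 lower gene was Kcnip4.

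Age was compared within each genotype. In controls, 1 of the 29 was higher and 1 lower at 6 than at 1.5 months, where 9.66% of genes were called, 4.17% higher and 5.5% lower. In controls 1 was higher and 2 lower at 10-12 than at 1.5 months, where 4.08% were called, 1.48% higher and 2.6% lower. Piezo2 fell with age: controls had 13.5, 16.6 and 18.2 CPM as lowest, median and highest at 1.5 months, 10.6, 9.77, 12.1, 13.3 and 15.5 CPM at 6 months, and 10.46, 11.2 and 12.8 CPM at 10-12 months. The first and last did not overlap (-0.51 ± 0.11, edgeR adjusted p = 0.00467). In CHMP2Bintron5 cord Piezo2 fell from 15.4, 19.6, 16.4, 16.5 and 14.6 CPM at 1.5 months to 7.58, 9.92 and 12.2 CPM as lowest, median and highest at 10-12 months (-0.74 ± 0.11, edgeR adjusted p = 1.5e-04). Both calls stood whichever library was left out, and both were lost only with all 32 libraries in the fit (edgeR adjusted p = 0.383 and 0.143).

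Trpa1 rose with age in controls, from 0.527, 0.764 and 1.16 CPM as lowest, median and highest at 1.5 months to 1.07, 1.38 and 1.78 CPM at 10-12 months (0.81 ± 0.20, edgeR adjusted p = 0.0163). The groups overlapped by 1 library of each, and the call stood whichever library was left out but not in a fit of the 2 groups alone (edgeR adjusted p = 0.0571) or with all 32 (0.195). Trpv1 went the other way, from 0.496 to 0.973 CPM at 1.5 months and from 0.391 to 0.486 CPM at 10-12 months (-0.75 ± 0.22, edgeR adjusted p = 0.0441), a call lost in 10 of 12 fits that left out 1 library. Fxyd2 rose between 1.5 and 6 months (0.95 ± 0.29, edgeR adjusted p = 0.0377), from 0.519 to 1.25 CPM to 1.42, 2.11, 1.47, 1.92 and 1.47 CPM, and Piezo2 fell (-0.40 ± 0.11, 0.0259). The call of Fxyd2 was lost in 8 of 11 and that of Piezo2 in 5 of 11 fits that left out 1 library.

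Between 10-12 and 6 months in controls none of the 29 genes and none of 20563 genes was called by edgeR, where 1 of the 29 and 980 of all genes had an unadjusted p under 0.05.

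In CHMP2Bintron5 cord, 2 of the 29 rose and 5 fell from 1.5 to 10-12 months, where 5.94% of genes were called, 2.43% higher and 3.51% lower. Ctxn3 rose from 5.31, 6.29, 7.36, 6.07 and 8.80 CPM to 9.41, 11.1 and 12.9 CPM as lowest, median and highest (0.70 ± 0.17, edgeR adjusted p = 0.0106). The groups did not overlap, and the call stood in each of 19 alternative fits. Avil fell from 1.098 to 1.41 CPM to a range of 0.525 to 1.16 CPM (-0.80 ± 0.22, edgeR adjusted p = 0.0298), and Ppp1r1c from 1.41 to 2.13 CPM to a range of 0.5999 to 1.42 CPM (-0.91 ± 0.24, 0.0214). Pirt (-0.53 ± 0.14, edgeR adjusted p = 0.0211), P2rx3 (-0.40 ± 0.12, 0.0423) and Piezo2 fell as well, and Drgx rose (0.28 ± 0.07, 0.0231). Of these, the calls of Avil and P2rx3 were lost in 9 and 7 of 11 fits that left out 1 library, Pirt in 5, Ppp1r1c in 4 and Drgx in 2. The comparisons of age within CHMP2Bintron5 cord and of genotype share the CHMP2Bintron5 libraries at 1.5 and 10-12 months, so they are not independent of each other.

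Reads of 9 of the 35 genes could be shared with a gene that overlaps them in the annotation, since the strand setting of the counting is not given: Avil, P2rx3, Pirt, Tmem79, Prdm12, Trpm8, Ctxn3 and Runx1 have a counted neighbour on the opposite strand, and Nmb overlaps Sec11a on the same strand. With all 32 libraries, the log2 fold change of CHMP2Bintron5 over control at 6 months was 7.64 for Scn11a, 7.64 for Mrgprd, 5.96 for Avil and 5.07 for Pirt, and 1.06 for Calcb. Those values hold the 2 libraries that chose the genes and are given as a description, beside 0.12 for Avil, 0.07 for Pirt and 0.60 for Calcb without the 2.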

How the data were processed

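Polyadenylated RNA of spinal cord, 500 ng per library, was prepared with a TruSeq stranded mRNA kit, per the labels' protocols. The authors deposited raw counts per Ensembl gene. Per the submitters' processing notes, bcl2fastq 2.17.1.14, TopHat2 2.0.14, Bowtie2 2.1.0, HTSeq 0.6.1 and the mm10 build were used; no source used here gives the annotation release or the strand setting. Sample labels were followed where the series' design text differs from them (5 CHMP2Bintron5 samples at 1.5 months, and 10-12 months).

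Of 45706 identifiers, 45143 had a symbol. The genes and lists were chosen with earlier results of these data known. CPM used TMM-scaled totals of all 32 libraries. Tests were edgeR 4.0.16 quasi-likelihood fits (R 4.3.3, limma 3.58.1) of 6 groups in the 30 libraries other than CHMP2Bintron5 replicates 2 and 3 at 6 months, with filterByExpr (minimum count 10, minimum total 15) and Benjamini-Hochberg adjustment over all genes; calls are adjusted p-values under 0.05. By rule, the text names every called gene, the genes beside a class limit, all with a median of at least 1 CPM in the other 30 libraries, and those under it that stood at 5 CPM or more in both libraries; the rest were added so that all 35 are accounted for. Alternatives were all 32 libraries, DESeq2 1.42.0, its size factors in edgeR, no filter, at least 1 CPM in 4 libraries, a GC correction, a replicate block, the compared groups alone, and each library left out. Scripts were tested on simulated data. No 2 libraries of the same group agreed within sampling noise, and libraries of different groups were not compared in this way. Intervals and floors cover counting error only. Gene positions are from a GRCm38 annotation and promoters from RefSeq GRCm38.p6. Some genes of the marker lists are not reported here.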

Additional observations from a re-analysis of the deposited data

Results flagged for a closer look

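In 174 sets of values, 29 genes in 6 groups of 4 to 6 libraries, 10 had 1 library far from the rest of its group by Dixon's criterion. Chance gives about 1 such set in 20. Avil was high in CHMP2Bintron5 replicate 1 at 10-12 months, at 1.163 CPM with the nearest library at 0.7096 CPM, and in control replicate 2 at 6 months, at 1.288 CPM with the nearest at 0.7522 CPM. Calcb was high in control replicate 1 at 10-12 months, at 13.34 CPM with the nearest at 8.211 CPM, and this library alone made the genotype ranges overlap at that age. Prph was high in CHMP2Bintron5 replicate 4 at 1.5 months, at 116.9 CPM with the nearest at 79.43 CPM.

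Scn11a was high in control replicate 6 at 1.5 months (0.2149 CPM, nearest 0.1005 CPM). Trarg1 was high in control replicate 5 at 10-12 months (2.149 CPM, nearest 1.46 CPM), and Nppb in control replicate 4 of that age (0.2372 CPM, nearest 0.1543 CPM). Nmb was high in CHMP2Bintron5 replicate 2 at 10-12 months (6.671 CPM, nearest 4.865 CPM). Fam89a was low in control replicate 3 at 1.5 months (0.7568 CPM, nearest 0.9183 CPM), and Ctxn3 in control replicate 6 at 10-12 months (4.958 CPM, nearest 5.949 CPM).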

How the results depend on the processing

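Of 511 refits of the 27 calls, 333 kept the call, 178 lost it and 0 reversed its direction. The counts of genes called in this section are given without the share over all genes in the same refit. They therefore do not show whether these genes moved more than all genes did. With all 32 libraries the genes called were 1 for genotype at 1.5 months, 2 at 10-12 months, 0 for controls at 6 against 1.5 months, 0 for controls at 10-12 against 1.5 months and 1 for CHMP2Bintron5 age. Without a filter they were 1, 4 and 1 for the first 3 of these. With only the compared groups they were 0 at 1.5 months, 5 at 10-12 months, 0 at 6 months, 1 for controls at 10-12 against 1.5 months and 4 for CHMP2Bintron5 age. Controls at 6 against 1.5 months gave 4 with at least 1 CPM in 4 libraries, 4 with the GC correction and 6 with DESeq2, against 2. The cause was not tested.

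With 1 library left out, counts ran from 0 to 3 for genotype at 1.5 months (0 without CHMP2Bintron5 replicate 5), 3 to 11 at 10-12 months (3 without control replicate 3, 11 without control replicate 1), 0 to 3 at 6 months (0 without CHMP2Bintron5 replicate 4), 0 to 4 for controls at 6 against 1.5 months, 2 to 3 at 10-12 against 1.5 months, 0 to 0 at 10-12 against 6 months, 2 to 10 for CHMP2Bintron5 age (2 without replicate 3 and 10 without replicate 4 at 1.5 months) and 0 to 0 for the interaction. At 6 months, leaving out a CHMP2Bintron5 library leaves 1, assumed to vary like the other groups. DESeq2 called 0 of the genes and 9 in all for controls at 10-12 against 6 months.

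Replicate numbers gave no sign of pairing. Over 13 pairs of the same age and number the correlations of deviations ran from -0.40 to 0.34. Over 63 pairs of the same age and unlike number they ran from -0.33 to 0.42. These ranges do not show that the samples were unpaired. With the replicate block the counts were 3, 7, 2, 3, 2, 0, 5 and 0 for genotype at 1.5, 10-12 and 6 months, controls at 6 against 1.5, 10-12 against 1.5 and 10-12 against 6 months, CHMP2Bintron5 age and the interaction.

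The count of 18 genes at least 5 times above all other libraries was 25 at 2 times and 14 at 10 times, and 18 with total-count CPM. The median ratio between the 2 libraries was 1.86 with nothing subtracted, 2.34 with the mean of replicates 1 and 4 subtracted, 2.20 with total counts and 2.38 over the 18 genes with at least 500 counts in each.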

Other observations

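Outside the 35 genes, 24 other genes stood at least 5 times above every other library in both CHMP2Bintron5 replicates 2 and 3 at 6 months. They were picked by that level, so this is a description. Of the 24, 5 are those already counted in the list of further nociceptor and itch genes, Tmem233 and Tmem45b among them. Tmem233 had 26.7 and 69.2 CPM against at most 0.898 CPM elsewhere. Slc17a7, the vesicular glutamate transporter VGLUT1, had 17.3 and 30.3 CPM against at most 0.367 CPM. Tmem45b had 7.63 and 21.99 CPM against at most 0.278 CPM. Tlx2, a homeobox transcription factor, had 1.203 and 3.78 CPM against at most 0.0525 CPM. Gm13425, which overlaps Prdm12 on the opposite strand, had 3.72 and 9.72 CPM against at most 0.0908 CPM.

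Genes of touch neurons and proprioceptors, which cord neurons also make, were compared by genotype in the fit without those libraries. Of 15, 2 were called higher (Th and Kcns1) and none lower at 1.5 months, where 1.68% of all genes tested were called higher and 1.71% lower. At 6 months none was higher and 4 were lower (2.16% of all genes). At 10-12 months 1 was higher (Th, 7.77% of all genes) and 6 were lower (9.59%), and no gene of the list was called for a difference between the effects at 10-12 and 1.5 months. The 6 were Etv1 (log2 fold change -0.84, edgeR adjusted p = 3.3e-04), Spp1 (-0.87, 2.6e-04), Tafa4 (-1.08, 0.00265), Pvalb, a calcium buffer (-0.44, 0.0163), Nefh, the heavy neurofilament (-0.33, 0.00758), and Kcnc1, a potassium channel (-0.25, 0.0107).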
